A study of Rattus norvegicus with 115 samples.

Results

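The hemisphere opposite a 9L brain tumour was compared between 15 d and 8 d after microbeam radiation therapy (MRT) in 4 and 6 rats, which gave 10 of the 115 arrays of the series. The members were all arrays labelled as contralateral tissue after MRT at those times, from rats 40, 41, 42 and 43 at 15 d and rats 32, 33, 34, 35, 37 and 38 at 8 d. Below, values by array are listed in that order of the rats. All animals of the series were Fisher rats whose right caudate nucleus had received 9L cells, a rat glioblastoma line, 10 d before treatment, so the untreated rats carried a tumour too. MRT splits a synchrotron beam into narrow parallel sheets, here with a dose of 400 Gy inside the sheets and 18 Gy in the valleys that separate them, and the labels state that the hemisphere without the tumour was irradiated as well. The groups set beside the comparison were contralateral tissue after a broad beam (BB) at 15 d and 8 d (4 arrays each), tumours after MRT at 15 d and 8 d (4 and 7 arrays), and contralateral tissue of untreated rats at 8 d (4 arrays). No array of untreated rats at 15 d was analysed here, so time since irradiation, the age of the animals and the growth of the tumour on the other side cannot be told apart. Levels are log2 of the array intensity, on which a difference of 1 is a 2-fold difference, and are not compared between genes. A change is the mean log2 level at 15 d minus that at 8 d, with its standard error.

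Irradiated brain passes through an early phase in which damaged DNA activates the transcription factor p53, and through a later phase in which microglia, the resident phagocytes, change their state and monocytes may enter. Microglia and macrophages sense and ingest lipid and myelin debris with receptors such as Trem2, digest it in lysosomes and export cholesterol on apolipoproteins. Cells that receive sterol reduce their own cholesterol synthesis through the transcription factors of the SREBP family. These points are background and not results of these arrays.

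By its pan-neuronal genes the tissue matched its label. The mean of 24 such genes was 11.72 to 11.91 log2 on the 15 d arrays and 11.47 to 11.78 on the 8 d arrays. The median on the MRT tumours at 8 d was 9.77. The mean of 14 genes of 9L and mesenchymal tumour was 5.57 to 6.30 and 5.40 to 5.72, against 7.12 in those tumours. That list alone does not separate brain from tumour, as the untreated contralateral array of rat 30 at 8 d lay above 7.12. Median intensity was 124 to 128 on the 15 d arrays and 126 to 131 on the 8 d arrays, and Pearson correlations among the 10 arrays were 0.985 to 0.996. The arrays of rats 32 and 34 at 8 d stood apart on the main axis of variation among the 10, so several results, but not all, are also given without them. The difference between the 3' and 5' Gapdh probe sets, a sign of RNA length, was -0.02 to 0.05 log2 at 15 d and 0.25 to 0.68 at 8 d, groups that did not overlap (means 0.02 ± 0.03 and 0.39 ± 0.17, SD, exact two-sided permutation p = 0.00476, the smallest that 210 splits allow). RNA length and time therefore moved together.

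Few probe sets passed the test between 15 d and 8 d. Of 31042 probe sets tested with limma, 9 passed an adjusted p of 0.05 (0.029%), 6 higher and 3 lower at 15 d, and 2624 had an unadjusted p under 0.05. The 9 comprised 7 named genes. Those higher at 15 d were Cd86, Trem2, Acp5, Apoc1 and Clic2, and those lower were Mdm2 and Pln. Over all probe sets the median change was -0.01 log2, and 35 probe sets had a change of 1 log2 or more in either direction. All 4 arrays at 15 d lay above all 6 arrays at 8 d in 748 probe sets (2.41%) and below them in 621 (2%).

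Cd86 encodes a costimulatory ligand for T cells on activated phagocytes and dendritic cells. Its probe set 1387627_at read 7.00, 6.49, 6.91 and 6.38 log2 at 15 d, against 5.55, 5.86, 5.78, 6.15, 6.11 and 5.78 at 8 d. Every 15 d array lay above every 8 d array, with rats 40 and 42 highest. The means were 6.69 ± 0.31 (SD, n = 4) at 15 d and 5.87 ± 0.22 (SD, n = 6) at 8 d, and the gene rose by 0.82 ± 0.12 log2 (limma, adjusted p = 0.000342). The gene's other probe set, 1377943_at, gave a change of 0.84 ± 0.19 (limma, adjusted p = 0.0944), also without overlap. The levels of 1387627_at were at or below the median of each array, where the rounding of the deposited values is coarser.

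Trem2, the lipid-sensing receptor of microglia, read 8.22, 9.06, 8.49 and 8.48 log2 at 15 d and 7.83, 7.67, 7.79, 7.78, 8.07 and 7.97 at 8 d on probe set 1382513_at. The groups did not overlap, and rat 41 was highest. Trem2 rose by 0.71 ± 0.15 log2 (limma, adjusted p = 0.0437), while its second probe set, 1392759_at, gave 0.63 ± 0.18 (limma, adjusted p = 0.235) with overlapping groups. The 250 bases before the start of Cd86 and of Trem2 are shown because both genes rose and both windows hold the core word of PU.1 and related ETS factors, GAGGAA (capitals mark it, here on the opposite strand as TTCCTC). The Cd86 window is chr11:77669031-77669280 on the plus strand and the Trem2 window chr9:20151780-20152029 on the minus strand, both from RefSeq on build GRCr8.
Cd86: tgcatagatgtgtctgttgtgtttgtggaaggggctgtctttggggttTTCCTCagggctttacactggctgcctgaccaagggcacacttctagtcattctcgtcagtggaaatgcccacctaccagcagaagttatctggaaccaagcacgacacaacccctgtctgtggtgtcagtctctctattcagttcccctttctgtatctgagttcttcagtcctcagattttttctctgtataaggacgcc
Trem2: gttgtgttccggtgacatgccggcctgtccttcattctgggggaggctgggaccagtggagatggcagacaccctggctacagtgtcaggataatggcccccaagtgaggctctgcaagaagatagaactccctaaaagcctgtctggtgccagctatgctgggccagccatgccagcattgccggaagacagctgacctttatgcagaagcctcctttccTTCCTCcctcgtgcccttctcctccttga
The word begins 202 bases before the start of Cd86 and 29 bases before that of Trem2. It stood on either strand in 8 of the 14 genes of the activated phagocyte list that had a window (57.1%). In the homeostatic microglia list, which holds Trem2, it stood in 3 of 6 such genes (50.0%). Of 33469 windows of all genes 23.3% held it. A list gene counted if any of its windows held the word, while the share over all genes is per window, so the units differ. The windows of Acp5 and Apoc1 did not hold the word. A match describes the letters and is not a measured binding site.

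Apoc1, a small apolipoprotein made by macrophages and astrocytes, had the largest change among the called genes. It read 9.69, 10.35, 10.10 and 9.76 log2 at 15 d and 8.21, 8.37, 8.58, 8.79, 9.28 and 9.12 at 8 d. The groups did not overlap, and Apoc1 rose by 1.25 ± 0.25 log2 (limma, adjusted p = 0.0271). Acp5, the tartrate-resistant acid phosphatase of osteoclasts and macrophages, read 8.10, 8.01, 8.57 and 7.38 at 15 d and 7.44, 6.64, 6.63, 6.95, 7.09 and 6.81 at 8 d. It rose by 1.09 ± 0.19 log2 (limma, adjusted p = 0.00818), although rat 43 at 15 d lay just below rat 32 at 8 d. Clic2, of the chloride intracellular channel family, read 7.53, 7.43, 7.92 and 6.91 at 15 d and 6.15, 6.83, 6.74, 6.61, 6.60 and 6.46 at 8 d, without overlap. It rose by 0.88 ± 0.18 log2 (limma, adjusted p = 0.0397).

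Mdm2 encodes the ubiquitin ligase that p53 induces and that in turn degrades p53. Probe set 1383288_at read 10.16, 10.05, 9.86 and 9.81 log2 at 15 d, against 10.72, 10.54, 10.70, 10.70, 10.40 and 10.55 at 8 d. All 15 d arrays lay below all 8 d arrays, and both groups lay above the untreated contralateral arrays at 8 d, which read 9.29 to 9.43. Mdm2 fell by 0.63 ± 0.12 log2 (limma, adjusted p = 0.0141). Its other probe sets gave -0.67 ± 0.22 (1384427_at) and -0.20 ± 0.28 (1383485_at), with overlapping groups and adjusted p of 0.312 and 0.908 in limma.

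Pln encodes phospholamban, which restrains the calcium pump of muscle and of some other cells. Probe set 1388876_at read 6.29, 5.86, 5.95 and 6.21 log2 at 15 d and 6.38, 7.19, 6.81, 7.39, 6.85 and 6.85 at 8 d, and 5.52 to 5.88 in untreated rats at 8 d. Pln fell by 0.83 ± 0.15 log2 without overlap (limma, adjusted p = 0.0141), so the 8 d arrays were the high group. A second probe set, 1370157_at, gave -0.57 ± 0.21, and another, 1384689_at, gave 0.02 ± 0.15. The 2 other called probe sets have no gene listed. Probe set 1376089_at read 7.52, 7.61, 7.67 and 8.29 at 15 d and 9.19, 8.76, 9.07, 8.37, 8.38 and 8.48 at 8 d, a fall of 0.93 ± 0.18 in limma (adjusted p = 0.0191). Probe set 1377908_at read 7.18, 6.85, 7.74 and 7.00 at 15 d and 5.98, 6.39, 6.04, 6.30, 6.85 and 6.66 at 8 d, a rise of 0.82 ± 0.16 in limma (adjusted p = 0.026), and its groups met at 6.85.

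**Figure D1:**
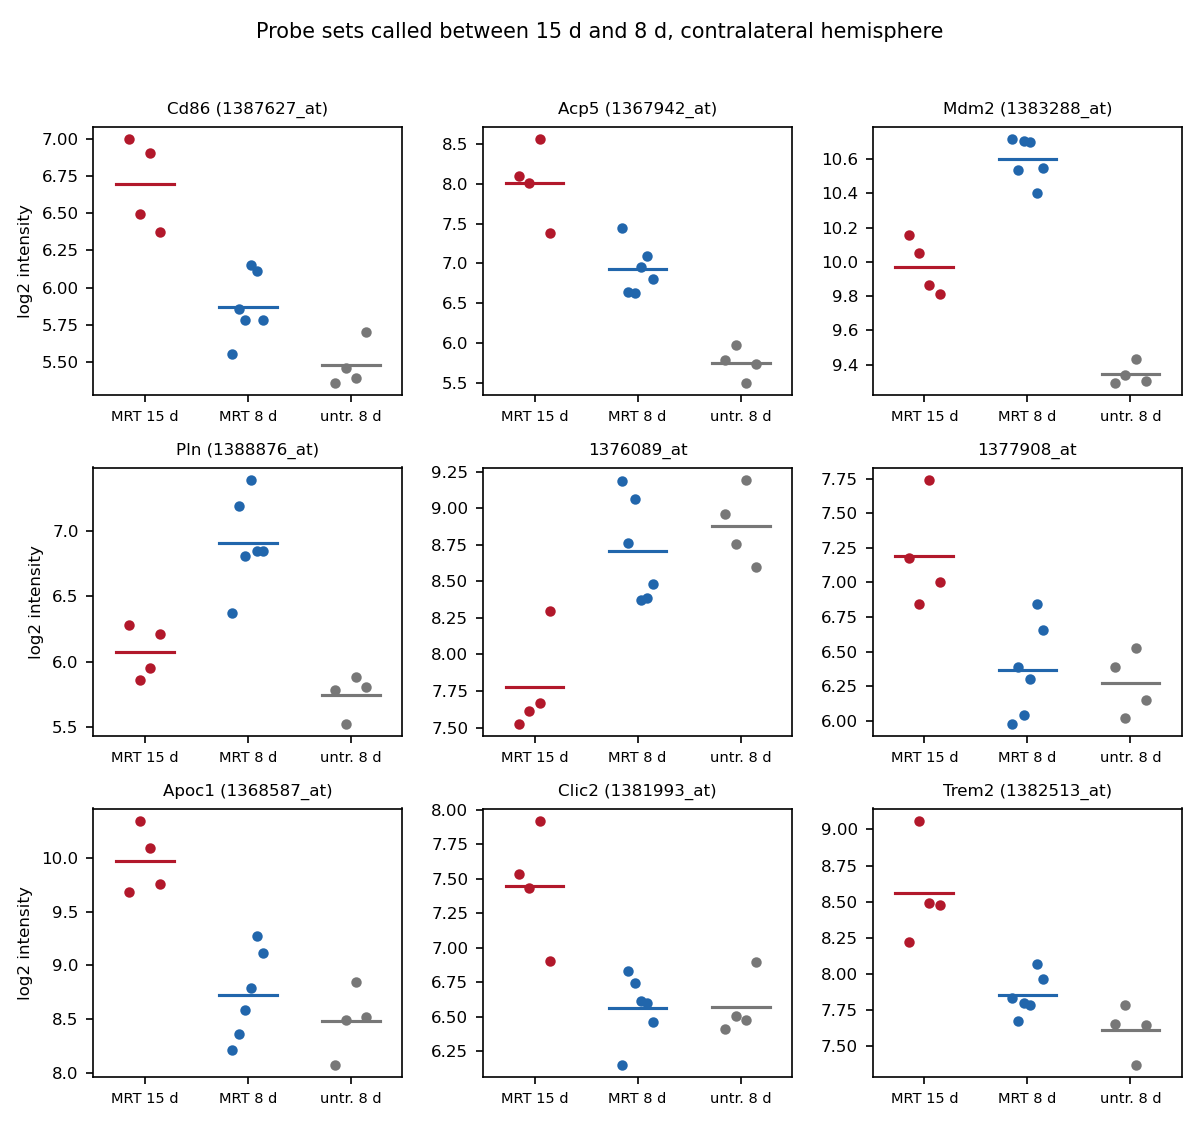
Log2 intensity of the 9 probe sets that passed the test, 1 panel each, for MRT contralateral arrays at 15 d (4), MRT contralateral arrays at 8 d (6) and untreated contralateral arrays at 8 d (4). Points are arrays and lines are group means; Cd86 at 15 d lies at 6.38 to 7.00, above its 8 d arrays at 5.55 to 6.15, and Mdm2 at 15 d lies between the 8 d and the untreated arrays.

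Several of these calls rest on few arrays. A limma fit of the 10 arrays alone called 54 probe sets, of which 2 were among the 9, Mdm2 and Apoc1, and array quality weights gave 1412 calls with all 9 among them. Without 8 d rats 32 and 34 limma called 4 probe sets, with Cd86, Acp5 and Pln among them. Leaving out 1 array gave 1 call without 15 d rat 42, 5 without 15 d rat 41, 5 without 8 d rat 32 and 3 without either 8 d rat 33 or 8 d rat 34, but 18 without 15 d rat 43 and 17 without 8 d rat 35. With the Gapdh difference as a covariate 3 probe sets were called, and Cd86 and Acp5 kept their calls. With the mean of the thalamus, hippocampus and hypothalamus markers as a covariate Cd86 alone kept its call, while the changes of the other named genes were 0.92 log2 for Acp5, 0.92 for Apoc1, 0.80 for Clic2, 0.61 for Trem2, -0.53 for Mdm2 and -0.70 for Pln. Over all alternatives the change of Acp5 ran from 0.91 to 1.30 log2, that of Apoc1 from 0.92 to 1.36 and that of Clic2 from 0.72 to 1.06. That of Trem2 ran from 0.54 to 0.82, that of Pln from -0.99 to -0.70 and that of Mdm2 from -0.69 to -0.53. When 1 of the 10 arrays was left out, Clic2 kept its call in 2 of 10 fits and Trem2 in 3. Apoc1 kept it in 5, Mdm2 and Pln in 7, Acp5 in 9 and Cd86 in 10.

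Genes of phagocytes were read from lists of 20 activated phagocyte genes, 10 homeostatic microglia genes and 19 genes of infiltrating macrophages and monocytes. Each gene is represented by 1 probe set, and over all 14217 genes so represented 5.32% had an unadjusted limma p under 0.05 on the higher side, 3.38% on the lower side, 3.5% had 15 d arrays entirely above the 8 d arrays and 2.17% entirely below. The median change over all genes was 0.01 log2. The adjusted test in limma called 0.0422% of these genes. Of the 20 activated phagocyte genes, 0 passed it, 11 had an unadjusted p under 0.05, all on the higher side, and 10 were entirely above. Their median change was 0.42 log2. The mean of the list was 10.62 to 10.89 on the 15 d arrays, 10.31 to 10.48 on the 8 d arrays and 8.93 to 9.36 on the untreated arrays at 8 d. The 15 d arrays thus formed the highest of the 3 groups without overlap.

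Among them Apoe, the main apolipoprotein of brain, read 13.95, 13.90, 13.89 and 13.79 log2 at 15 d and 12.95, 13.35, 13.04, 13.54, 13.66 and 13.44 at 8 d, a change of 0.55 ± 0.14 (limma, adjusted p = 0.143). The lysosomal protease Ctsd read 12.20, 12.02, 12.16 and 12.02 at 15 d and 11.56, 11.59, 11.21, 11.65, 11.87 and 11.53 at 8 d, a change of 0.53 ± 0.14 (limma, adjusted p = 0.188). Tyrobp, the signalling partner of Trem2, read 10.47, 10.57, 10.87 and 10.18 at 15 d and 9.91, 9.84, 9.92, 9.96, 10.08 and 10.10 at 8 d, a change of 0.55 ± 0.17 (limma, adjusted p = 0.285). None of the 3 had overlapping groups, and none passed the adjusted test. Of genes chosen after their values were seen, Gpnmb, Clec7a and Cd68 changed by 0.68 ± 0.26, 0.73 ± 0.34 and 0.56 ± 0.23, and Spp1, osteopontin, read 9.85, 11.00, 9.74 and 10.05 at 15 d and 9.28, 8.45, 9.02, 9.37, 9.51 and 8.86 at 8 d.

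Of the 10 homeostatic microglia genes, 1 passed the adjusted test, Trem2, and 4 had an unadjusted limma p under 0.05 on the higher side. The median was 0.29 log2, and 5 were entirely above. C1qa, Aif1 and Tmem119 changed by 0.55 ± 0.20, 0.60 ± 0.27 and 0.65 ± 0.33 log2. Tmem119, a marker of resident microglia, read 7.77, 7.92, 7.69 and 8.23 at 15 d, 7.44, 7.29, 7.18, 7.07, 7.19 and 7.34 at 8 d, and 8.38 to 10.10 in untreated rats. The 15 d arrays therefore lay between the 8 d and the untreated arrays. P2ry12, the purinergic receptor of resting microglia, changed by 0.17 ± 0.40 and Sall1, a microglial transcription factor, by -0.22 ± 0.15, with overlapping groups in both. With the mean of the thalamus, hippocampus and hypothalamus markers as a covariate, 1 gene of this list had an unadjusted limma p under 0.05 on the higher side and 1 on the lower side, and the median was 0.19. In tissue RNA, fewer cells of a type and less RNA per cell cannot be told apart, here and in the lists that follow.

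Of the 19 genes of infiltrating macrophages and monocytes, 0 passed the adjusted test in limma, 4 had an unadjusted p under 0.05 and 3 were entirely above, with a median of 0.23 log2 and all 19 above 0. The mean of this list was 7.82 to 8.24 at 15 d and 7.62 to 7.90 at 8 d, so the groups overlapped. F13a1, a macrophage transglutaminase, changed by 0.71 ± 0.23, the invariant chain Cd74 by 0.80 ± 0.31 and the pan-leukocyte tetraspanin Cd53 by 0.68 ± 0.30. With the Gapdh covariate 8 activated phagocyte genes had an unadjusted limma p under 0.05 and the list's median was 0.35 log2. With the thalamus, hippocampus and hypothalamus covariate these were 11 and 0.49, and without 8 d rats 32 and 34 they were 10 and 0.39. Over all genes 4.28%, 3.1% and 3.73% had such a p on the higher side in these settings.

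**Figure D2:**
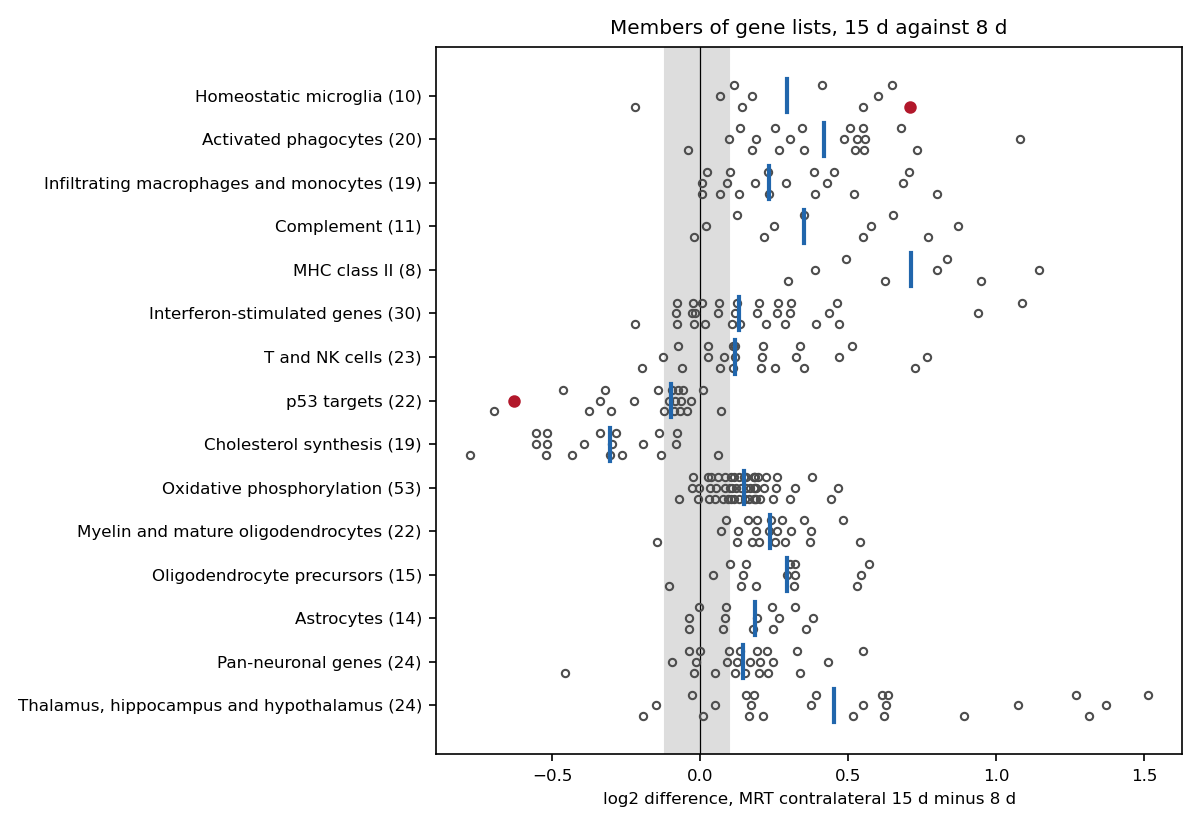
Change from 8 d to 15 d (log2, MRT contralateral) of every measured member of 15 gene lists, with the number of members in brackets. Circles are genes, filled red circles passed the adjusted test, blue bars are list medians and the grey band holds the middle of all probe sets, from the lower to the upper quartile; the medians run from -0.30 for cholesterol synthesis to 0.71 for MHC class II.

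Complement genes and antigen presentation genes followed the phagocyte lists in sign. Of 11 complement genes, 0 passed the adjusted test in limma, 5 had an unadjusted p under 0.05, all higher, and the median was 0.35 log2. Cfd, complement factor D, read 7.74, 7.70, 8.26 and 7.69 log2 at 15 d and 7.07, 6.70, 6.73, 7.26, 7.49 and 6.61 at 8 d, a change of 0.87 ± 0.22 (limma, adjusted p = 0.158). C1qb, a chain of the initiator C1q, read 10.56, 10.57, 10.91 and 10.47 at 15 d and 9.78, 9.75, 9.55, 10.11, 10.12 and 9.85 at 8 d, a change of 0.77 ± 0.23 (limma, adjusted p = 0.238). Neither gene had overlapping groups. The inhibitor Serping1 changed by 0.65 ± 0.22, with rat 41 at 15 d inside the range of the 8 d arrays.

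The 8 MHC class II genes had the largest list median, 0.71 log2, and all 8 were above 0, but the 15 d arrays differed among themselves. Of the 8, 0 passed the adjusted test in limma and 6 had an unadjusted p under 0.05. RT1-Ba, a class II chain, read 11.49, 10.30, 12.07 and 10.72 log2 at 15 d and 9.77, 10.54, 9.70, 10.07, 10.16 and 9.76 at 8 d, a change of 1.15 ± 0.39 (limma, adjusted p = 0.384). Rats 40 and 42 were high, while rat 41 lay inside the 8 d range. The list mean repeated this, with 10.91, 9.99, 11.34 and 10.33 at 15 d and 9.65 to 10.32 at 8 d. RT1-DMa, which loads peptide onto class II, was the 1 gene of the list whose groups did not overlap, at 9.14 to 9.74 and 8.82 to 9.03. Sequences of the RT1 family are close to each other, and a probe set may read more than 1 of them. With the Gapdh covariate 1 class II gene had an unadjusted limma p under 0.05 and the median was 0.59 log2. Without 8 d rats 32 and 34 these were 4 and 0.66. Over all genes 4.28% and 3.73% had such a p on the higher side in these settings.

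Class I and antigen processing genes had a median of 0.13 log2 with 2 of 16 at an unadjusted limma p under 0.05, and 30 interferon-stimulated genes had a median of 0.13 with 2 of 30, where 5.32% of all genes had one on the higher side. Ifitm1, an interferon-induced membrane protein, read 10.76, 10.57, 11.11 and 10.37 at 15 d and 9.28, 9.53, 9.47, 9.89, 9.91 and 9.62 at 8 d, against 6.83 to 8.43 in untreated rats, and its change was 1.09 ± 0.31 (limma, adjusted p = 0.235). Of 30 chemokines and cytokines 6 had an unadjusted limma p under 0.05, all higher, and the median was 0.11 log2. The number was 2 without 8 d rats 32 and 34, where 3.73% of all genes had such a p on the higher side, and 3 with the Gapdh covariate, where 4.28% had. Cxcl16, a ligand for T cells, changed by 0.75 ± 0.22 and lay at 10.16 to 10.75 at 15 d, at 9.54 to 9.92 at 8 d and at 7.17 to 7.52 in untreated rats. Of 23 genes of T and NK cells, 4 had an unadjusted limma p under 0.05 and 3 were entirely above, with a median of 0.12 log2, and without 8 d rats 32 and 34 the number was 2 and the median 0.07. Cd8a read 6.09, 6.15, 5.98 and 6.19 at 15 d and 5.13, 5.58, 5.21, 5.55, 5.58 and 4.95 at 8 d (change 0.76 ± 0.24, limma, adjusted p = 0.302), and Cd4, which rat macrophages express too, changed by 0.47 ± 0.12 (limma, adjusted p = 0.143). Lists of 8 B and plasma cell genes and 8 neutrophil genes had medians of 0.04 and 0.01.

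Of 22 targets of p53, 1 passed the adjusted test, Mdm2, 3 had an unadjusted limma p under 0.05, all lower, 3 were entirely below the 8 d arrays, and 2 were above 0. The median was -0.10 log2. The list mean was 8.58 to 8.80 on the 15 d arrays, 8.77 to 9.03 on the 8 d arrays and 7.76 to 7.98 on the untreated arrays, so both irradiated groups stood above the untreated one and overlapped each other. Gdf15, a stress-induced secreted factor, read 7.23, 6.69, 6.82 and 6.69 at 15 d and 6.88, 7.07, 7.38, 8.11, 7.90 and 7.97 at 8 d, a change of -0.70 ± 0.23 (limma, adjusted p = 0.325). Aen, a nuclease induced in apoptosis, read 8.37, 8.18, 8.33 and 8.23 at 15 d and 8.64, 8.54, 8.71, 8.57, 8.51 and 8.71 at 8 d, a change of -0.34 ± 0.13 without overlap (limma, adjusted p = 0.447). Cdkn1a, the cell-cycle inhibitor p21, changed by -0.32 ± 0.22 and Ccng1 by -0.46 ± 0.28. With the Gapdh covariate 5 p53 targets had an unadjusted limma p under 0.05, all lower, where 2.1% of all genes had one on that side. The list's median was -0.21. Mdm2 gave -0.61 log2 under that covariate, close to its -0.63 without it, though its call was lost (limma, adjusted p = 0.0923).

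Genes of cholesterol synthesis formed the list with the lowest median, -0.30 log2. Of 19 genes 0 passed the adjusted test in limma, 11 had an unadjusted p under 0.05, all lower, 7 were entirely below the 8 d arrays and 1 was above 0. The list mean was 8.92, 8.99, 8.98 and 9.15 at 15 d and 9.18 to 9.46 at 8 d, and 9.34 to 9.51 in untreated rats. Msmo1, a methyl sterol oxidase, read 10.29, 10.10, 10.00 and 10.36 at 15 d and 10.69, 10.72, 11.01, 10.64, 10.55 and 10.61 at 8 d. It gave -0.52 ± 0.11 without overlap, and its limma adjusted p of 0.0566 missed the threshold. Fdft1, squalene synthase, read 8.50, 8.60, 8.67 and 9.05 at 15 d and 9.42, 9.51, 9.55, 8.91, 8.99 and 9.19 at 8 d, a change of -0.56 ± 0.13 (limma, adjusted p = 0.123). Only rat 43 at 15 d lay inside the 8 d range. Sqle, squalene epoxidase, read 9.11, 8.75, 8.73 and 9.17 at 15 d and 9.57, 9.50, 9.63, 9.38, 9.27 and 9.42 at 8 d, a change of -0.52 ± 0.13 without overlap (limma, adjusted p = 0.162). Without 8 d rats 32 and 34, whose list means were among the 3 highest, 8 genes had an unadjusted limma p under 0.05 and the median was -0.29. With the Gapdh covariate the numbers were 8 and -0.36. Over all genes 2.18% and 2.1% had such a p on the lower side in these settings.

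The promoters of 2 of these genes are shown because SREBP acts beside the CCAAT-binding factor NF-Y at sterol genes. Capitals mark CCAAT, or ATTGG where the word lies on the opposite strand. The Msmo1 window is chr16:29746863-29747112 on the plus strand and the window of Hsd17b7, a sterol reductase, is chr13:84722755-84723004 on the minus strand, both the 250 bases before the RefSeq start on GRCr8.
Msmo1: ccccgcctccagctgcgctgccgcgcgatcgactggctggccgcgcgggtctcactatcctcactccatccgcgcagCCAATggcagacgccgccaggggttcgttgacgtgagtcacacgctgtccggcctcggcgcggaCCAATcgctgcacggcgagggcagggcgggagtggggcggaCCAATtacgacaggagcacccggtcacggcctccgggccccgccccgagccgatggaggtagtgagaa
Hsd17b7: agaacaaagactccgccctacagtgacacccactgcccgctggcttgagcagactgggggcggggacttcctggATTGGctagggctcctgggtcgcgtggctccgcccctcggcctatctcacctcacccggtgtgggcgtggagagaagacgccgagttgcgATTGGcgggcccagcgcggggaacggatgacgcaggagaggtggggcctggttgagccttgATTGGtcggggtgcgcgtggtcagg
Msmo1 holds the word at 173, 109 and 68 bases before its start and Hsd17b7 at 176, 86 and 25. The word stood on either strand in 12 of the 15 cholesterol genes with a window (80.0%), in 5 of 14 activated phagocyte genes (35.7%) and in 34.0% of all 33469 windows. Here too list genes were counted by gene and the share over all genes by window. The window of Cyp51, which changed by -0.78 ± 0.22, did not hold the word. Hsd17b7 changed by -0.43 ± 0.11.

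**Figure D3:**
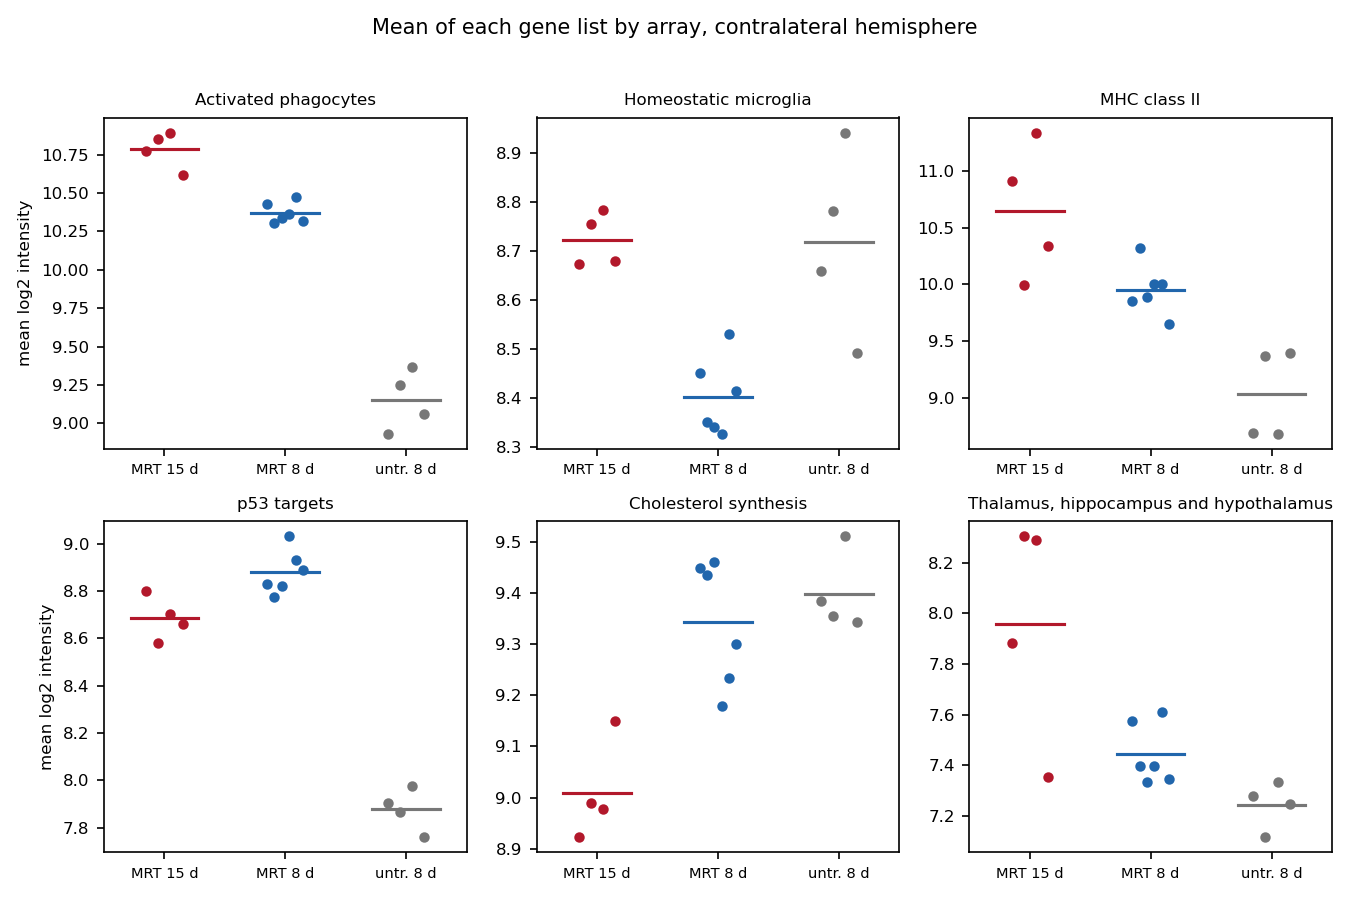
Mean log2 intensity of 6 gene lists on each MRT contralateral array at 15 d, MRT contralateral array at 8 d and untreated contralateral array at 8 d. Points are arrays and lines are group means; the activated phagocyte mean at 15 d (10.62 to 10.89) lies above the 8 d arrays (10.31 to 10.48), the cholesterol mean at 15 d below them, and the thalamus, hippocampus and hypothalamus mean is high in 3 of the 4 15 d arrays.

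The lists of myelin, oligodendrocyte precursor, astrocyte and reactive astrocyte genes had no called member in limma. Of 22 myelin genes 0 passed the adjusted test in limma and 5 had an unadjusted p under 0.05, with a median of 0.23 log2 and 6 entirely above. Mbp, myelin basic protein, read 14.20, 14.15, 14.17 and 14.13 at 15 d and 13.94, 13.98, 13.99, 14.02, 14.05 and 13.93 at 8 d on its brightest probe set, a change of 0.18 ± 0.07. Another, dimmer Mbp probe set averaged 12.53 at 15 d and 11.54 at 8 d. Its change was larger, 0.997 ± 0.289, with overlapping groups, and did not pass (limma, adjusted p = 0.235). Of 15 genes of oligodendrocyte precursors 3 had an unadjusted limma p under 0.05 and the median was 0.29. Pdgfra, the growth factor receptor of precursors, read 8.75, 9.35, 9.12 and 9.70 at 15 d and 8.90, 8.77, 8.85, 8.35, 8.78 and 8.46 at 8 d, against 10.46 to 11.33 in untreated rats, and its change was 0.54 ± 0.22 (limma, adjusted p = 0.464). Bmp4 read 6.73, 6.92, 6.54 and 6.89 at 15 d, 6.36, 6.19, 5.78, 6.48, 6.32 and 6.32 at 8 d and 6.98 to 7.55 in untreated rats. In both genes the 15 d mean lay between the 8 d mean and the untreated mean. The 14 astrocyte genes had a median of 0.19 with 2 at an unadjusted limma p under 0.05, and the 23 reactive astrocyte genes, 12 of them above 0 and 11 below, a median of 0.02 with 0. With the thalamus, hippocampus and hypothalamus covariate, under which 3.1% of all genes had an unadjusted limma p under 0.05 on the higher side, 1 myelin gene, 0 precursor genes and 0 astrocyte genes had one, and the medians were 0.11, 0.08 and 0.11. The medians of the myelin and precursor lists were thus lower when the region markers were taken into account, and that of the reactive astrocytes was 0.18.

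Of 53 genes of oxidative phosphorylation, 12 had an unadjusted limma p under 0.05 on the higher side and 48 were above 0, with a median of 0.15 log2. Ndufs8, a subunit of complex I, read 10.59, 10.60, 10.79 and 10.51 at 15 d and 9.94, 9.98, 10.00, 10.24, 10.34 and 10.43 at 8 d (0.46 ± 0.11, limma, adjusted p = 0.127). Its lowest values came from 8 d rats 32, 33 and 34. With the Gapdh covariate 2 of 53 had an unadjusted limma p under 0.05 and the median was 0.06. Under that setting 4.28% of all genes had such a p on the higher side. After quantile normalization the values were 5 and 0.09 (5.31% of all genes). Without 8 d rats 32 and 34 they were 5 and 0.13 (3.73% of all genes). For 26 cytosolic ribosomal proteins the values were 6 genes and 0.12. They were 1 gene and 0.05 with the Gapdh covariate, and 3 genes and 0.12 without 8 d rats 32 and 34.

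Markers of brain regions differed among the 15 d arrays. The 24 markers of thalamus, hippocampus and hypothalamus had a median of 0.45 log2, with 7 at an unadjusted limma p under 0.05 and 0 entirely above. Without 8 d rats 32 and 34 the median was 0.30, again with 7 at such a p. The list mean was 7.88, 8.30, 8.29 and 7.35 at 15 d and 7.33 to 7.61 at 8 d, so rats 40, 41 and 42 were high and rat 43 was not. Lhx9, a thalamic transcription factor, read 6.73, 6.69, 6.71 and 4.75 at 15 d and 4.75, 5.13, 4.46, 4.46, 5.58 and 4.70 at 8 d. Prkcd, a kinase of thalamic neurons, read 9.94, 11.03, 11.16 and 9.03 at 15 d and 8.99 to 9.63 at 8 d. The list's level moved with the 15 d group. With its mean as a covariate the counts of homeostatic microglia, precursor, myelin and astrocyte genes given above were lower, those of complement, oxidative phosphorylation and ribosomal protein genes were 3, 8 and 4, and those of activated phagocyte and cholesterol genes were 11 each, as without it. Markers of striatal projection neurons (23 genes, median 0.06), cortical glutamatergic neurons (22 genes, median -0.07) and pan-neuronal genes (24 genes, median 0.14) had 0, 0 and 1 member at an unadjusted limma p under 0.05. The median of the striatal list was 0.38 without 8 d rats 32 and 34 and 0.62 with the Gapdh covariate, but -0.44 with the thalamus, hippocampus and hypothalamus covariate, with 0 of 23 genes above 0 and 7 at an unadjusted limma p under 0.05. The cortical list turned to 0.07 with that region covariate. Mitosis genes (38, median -0.08), hypoxia genes (24, median -0.03), immediate early genes (22, median 0.01) and endothelial genes (31, median 0.07) had 0, 0, 0 and 1. The median of the mitosis list turned to 0.12 without 8 d rats 32 and 34 and to 0.20 with the Gapdh covariate, and that of the immediate early genes to -0.26 and -0.23. The 14 genes of 9L and mesenchymal tumour had a median of 0.27 log2 with 1 at an unadjusted limma p under 0.05. Lists of 18 interneuron genes, 31 glutamate and GABA receptors, 14 pericyte and smooth muscle genes, 20 choroid plexus and ependymal genes, 17 meningeal and fibroblast genes, 28 extracellular matrix genes, 19 glucocorticoid targets, 15 Nrf2 targets and metallothioneins, 14 heat shock proteins and 8 blood genes had medians of -0.06 to 0.18 log2, no called member and 1 to 3 members with such a p, all on the higher side. Among these, the median of the choroid plexus and ependymal genes was 0.09, but 0.24 without 8 d rats 32 and 34 and -0.19 with the thalamus, hippocampus and hypothalamus covariate.

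Against the untreated hemisphere at 8 d, many more probe sets passed the test at either time than between the times. Limma called 1748 probe sets at 15 d (5.63%, 1191 higher and 557 lower) and 1521 at 8 d (4.9%, 1017 higher and 504 lower). When all arrays were first set to 1 median, the splits were 1213 higher and 884 lower at 15 d and 982 and 898 at 8 d. The 2 comparisons share the untreated arrays, and the 15 d one also differs in time, so their values are given side by side only. The Gapdh difference was 0.10 to 0.27 log2 on the untreated arrays, -0.02 to 0.05 at 15 d and 0.25 to 0.68 at 8 d after MRT. How far RNA length adds to these calls was not tested. Among the untreated arrays rat 30 had the highest means of the 9L and mesenchymal tumour genes (7.35, the others 5.71 to 6.36) and of the mitosis genes (7.53, the others 6.14 to 6.85). Without it limma called 1355 probe sets at 15 d and 1085 at 8 d.

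The p53 targets were above the untreated level by a median of 0.52 log2 at 15 d and 1.06 at 8 d, with Mdm2 higher by 0.63 and 1.26. The activated phagocyte genes were above it by 1.33 and 1.01, with 16 and 14 of 20 called higher in limma, where 6.03% and 4.87% of all genes were. Interferon-stimulated genes were above it by 1.72 and 1.44 (23 and 25 of 30 called higher). Cholesterol genes differed from the untreated level by -0.42 and -0.04. Choroid plexus and ependymal genes were above that level by 1.09 and 0.90, with 8 of 20 called higher in limma at each time. Striatal markers were above it by 0.85 and 0.70, with 1 and 0 of 23 called higher. How far the region sampled adds to the calls against untreated tissue was not tested. Mmp12, a macrophage elastase, was the gene with the largest rise at both times, 5.09 ± 0.25 and 4.00 ± 0.23 log2. Its change from 8 d to 15 d was 1.09 ± 0.23, with an adjusted p of 0.0521 in limma and overlapping groups. Clec7a, a phagocyte lectin, was higher by 4.18 at 15 d and 3.45 at 8 d.

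**Figure D4:**
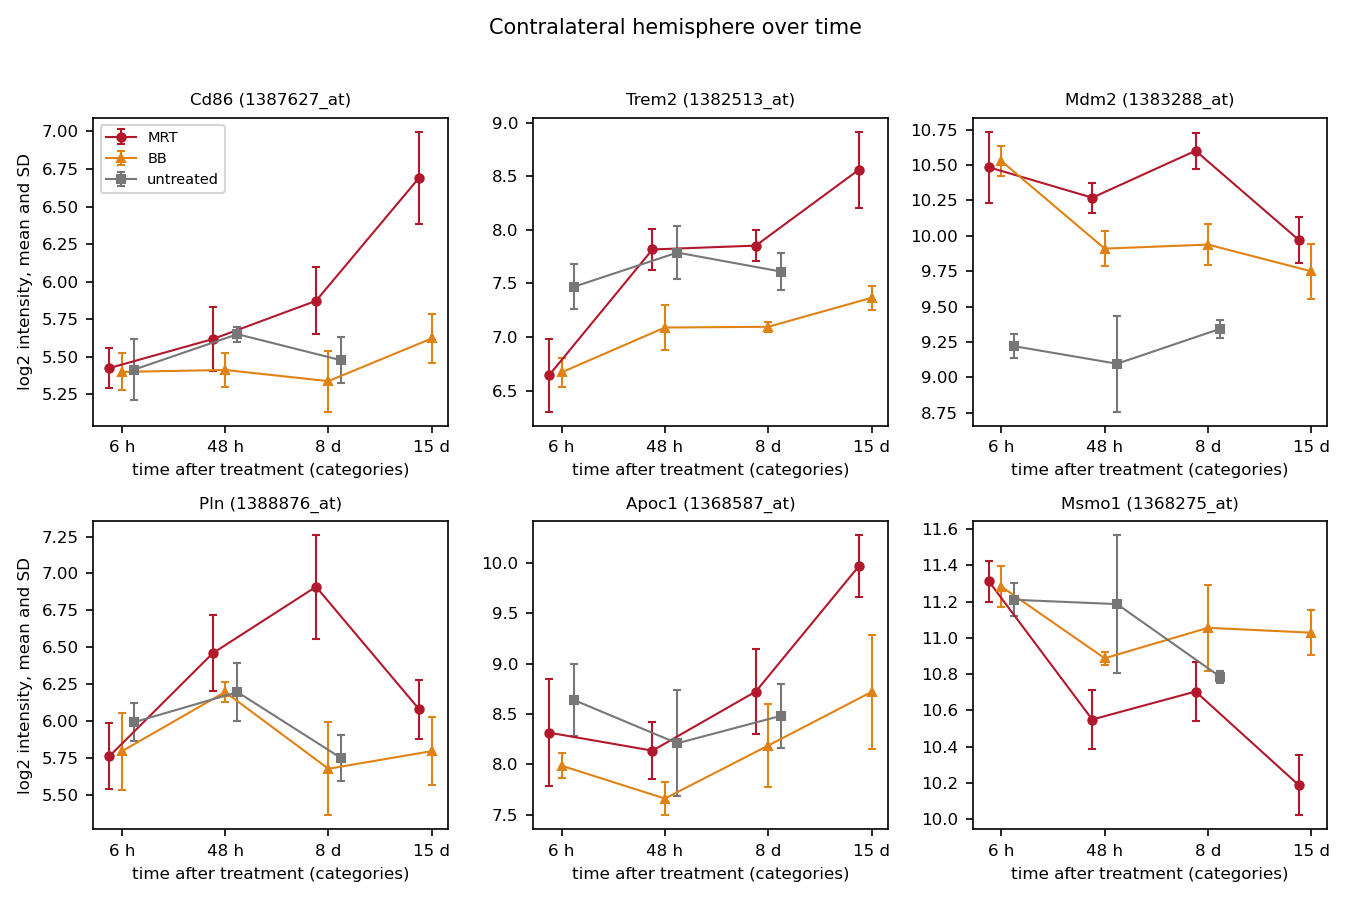
Mean log2 intensity with SD over arrays of 6 genes in the contralateral hemisphere at 6 h, 48 h, 8 d and 15 d after MRT or BB and in untreated rats, which were sampled up to 8 d; times are spaced as categories. Cd86 after MRT averages 5.42, 5.62, 5.87 and 6.69 over the 4 times, and Mdm2 after MRT averages 10.48, 10.27, 10.60 and 9.97.

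Over all 4 times after MRT, Cd86 averaged 5.42 ± 0.13, 5.62 ± 0.21, 5.87 ± 0.22 and 6.69 ± 0.31 log2 (SD), and Apoc1 8.32 ± 0.53, 8.14 ± 0.28, 8.72 ± 0.42 and 9.97 ± 0.31. Both were highest at 15 d. Mdm2 averaged 10.48 ± 0.25, 10.27 ± 0.11, 10.60 ± 0.13 and 9.97 ± 0.16, lowest at 15 d and still above the 9.34 ± 0.06 of untreated rats at 8 d. Pln averaged 5.76 ± 0.22, 6.46 ± 0.26, 6.91 ± 0.35 and 6.08 ± 0.20, with its highest level at 8 d.

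The same interval after BB served as the nearest comparison. Region markers differed between the BB groups. The striatal list mean was 8.21 to 9.28 at 15 d and 9.42 to 10.28 at 8 d, without overlap. Median changes after BB were -1.27 log2 for striatal markers, -0.99 for choroid plexus and ependyma and -0.52 for thalamus, hippocampus and hypothalamus. How far the region sampled adds to the BB changes, or to their difference from MRT, was not tested. Limma called 259 probe sets between BB contralateral arrays at 15 d and 8 d (0.834%, 131 higher and 128 lower). The count was 16 without BB rat 54, 18 without rat 60 and 27 without rat 59, and 493 without rat 58 and 478 without rat 56. A direct test of whether the change differed between MRT and BB called 0 of 31042 probe sets in limma (0%), with 1810 at an unadjusted p under 0.05. For the named genes the changes after MRT and after BB were 0.82 ± 0.12 and 0.28 ± 0.13 for Cd86, 1.09 ± 0.19 and 0.03 ± 0.21 for Acp5, and -0.63 ± 0.12 and -0.19 ± 0.13 for Mdm2. For Pln they were -0.83 ± 0.15 and 0.12 ± 0.17, for Clic2 0.88 ± 0.18 and 0.48 ± 0.20, for Apoc1 1.25 ± 0.25 and 0.53 ± 0.27, and for Trem2 0.71 ± 0.15 and 0.27 ± 0.16. Among these named genes all but Pln had the same sign after both beams, although the BB change of Acp5 was smaller than its standard error. The unnamed probe sets gave -0.93 ± 0.18 and 0.15 ± 0.19 (1376089_at), of opposite sign, and 0.82 ± 0.16 and 0.16 ± 0.18 (1377908_at). The MRT change minus the BB change was 1.06 ± 0.28 for Acp5 (limma, adjusted p = 0.348) and -0.95 ± 0.23 for Pln (limma, adjusted p = 0.199). None of the differences passed, which does not show that the beams act alike. The largest called changes after BB alone included Cxcl13, a B-cell chemokine, at 4.46, against 0.83 after MRT.

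**Figure D5:**
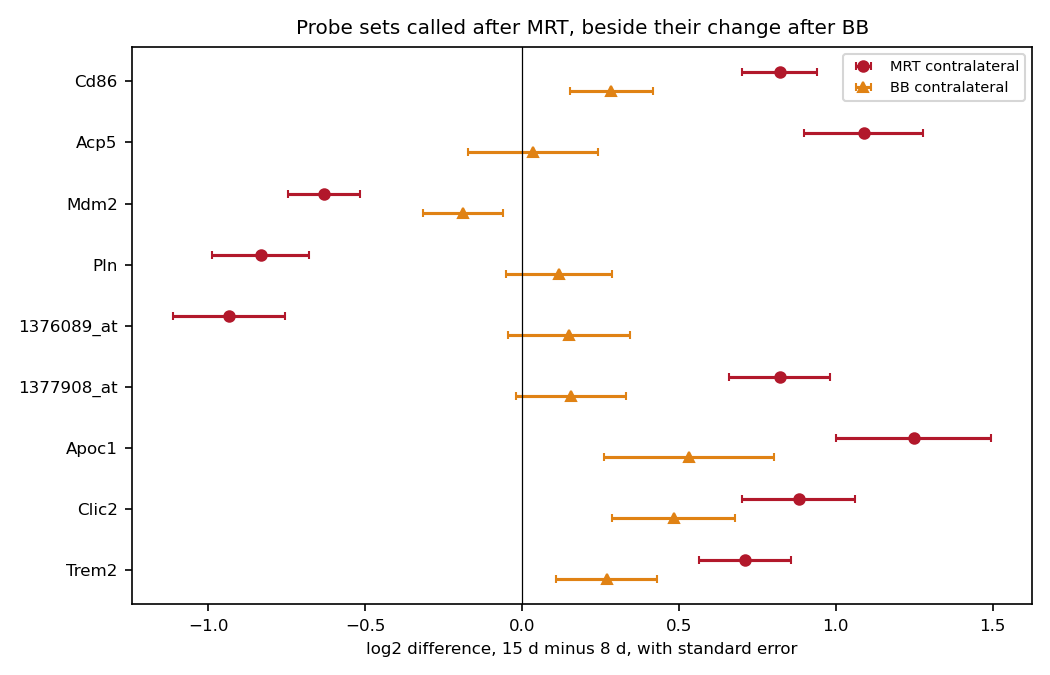
Change from 8 d to 15 d (log2 difference with standard error) of the 9 probe sets called after MRT, for MRT contralateral arrays (circles) and BB contralateral arrays (triangles). Acp5 lies at 1.09 after MRT and 0.03 after BB, and Pln at -0.83 and 0.12; no difference between the beams passed the adjusted test.

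The change in the contralateral hemisphere differed from that in the tumour of the same treatment. The median Gapdh difference was 0.02 log2 at 15 d and 0.32 at 8 d in contralateral tissue, but 0.32 and 0.13 in the tumours. The pan-neuronal mean of the tumours ran from 8.13 to 10.16 at 15 d and from 9.07 to 11.05 at 8 d. How far RNA length or the share of brain in the tumour samples adds to the differences below was not tested. Limma called 1990 probe sets (6.41%, 906 higher and 1084 lower in contralateral change minus tumour change), and with all arrays set to 1 median the split was 740 and 2098. With the rat as a replicate block, since both tissues of a rat were paired, the count was 3390 (1530 higher and 1860 lower). It was 982 without 15 d rat 40. Cd86 averaged 6.69 and 5.87 in contralateral tissue at 15 d and 8 d, against 6.75 and 8.10 in the tumours, so the changes differed by 2.18 (limma, adjusted p = 1.54e-05). The changes of Trem2 differed by 1.13 (limma, adjusted p = 0.0191), those of Clic2 by 1.59 (limma, adjusted p = 0.0048) and those of Mdm2 by -0.58 (limma, adjusted p = 0.0371). The changes of Acp5 differed by 1.16 (limma, adjusted p = 0.0813), and with the rat block by 1.18 ± 0.40 (limma, adjusted p = 0.04). For Apoc1 and Pln the differences were 0.18 and -0.18 and did not pass.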

How the data were processed

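Per the labels' protocols, biotin-labelled cRNA was made from total RNA with the 3' IVT Express kit. Affymetrix Expression Console, MAS5 and RMA are named in the submitters' processing notes for most arrays and RMA for the 35 BB arrays. The values the authors deposited are normalized intensity as whole numbers from 7 to 27837, and their log2 was taken here. Array medians ran from 116 to 165, and precision is limited by the number of arrays.

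Of 31099 probe sets, 57 controls were left out. Of the other 31042, 20826 list 1 gene symbol, 436 several and 9780 none. Group means were fitted over all 56 contralateral arrays, or all 115 for the comparison with tumours, with limma 3.58.1 in R 4.3.3, an intensity trend in the variance and Benjamini-Hochberg adjustment over all probe sets. A probe set was called at adjusted p under 0.05. The members, the 38 gene lists (748 of 884 genes measured, each by its brightest probe set) and the tests were chosen with earlier results of these data known. The rats of a comparison are different animals.

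Called genes with 1 symbol and groups that did not overlap are named, and at most 3 genes of a list by their moderated statistic. Acp5 and other genes beyond that were chosen after their values were seen. The rat pairs the tissues, per the labels. As a check, each tissue of a rat was set against its group mean, and in 36 of 55 rats with both tissues these residuals correlated above 0.1. Alternatives changed the arrays fitted, normalization, filter, variance prior, weights, covariates and single arrays. Those with the Gapdh or thalamus covariate, without rats 32 and 34, and leaving out arrays in the comparisons with untreated rats were added after seeing the data. The fit was tested on simulated data. Tables and figures were made with pandas 2.3.3, matplotlib 3.10.9 and numpy 2.4.6 in Python 3.11.15, and data.table in R.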

Additional observations from a re-analysis of the deposited data

Results flagged for a closer look

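In 4 of 96 groups examined, 1 array stood apart from the rest of its group by Dixon's 95% critical value, and chance gives about 1 in 20. The mean of the immediate early genes was 10.45 log2 in 8 d rat 35, with the nearest array at 9.26. The mean of the mitosis genes was 6.92 in 15 d rat 43, with the nearest at 6.54. The mean of the pericyte and smooth muscle genes was 7.35 in 8 d rat 32, with the nearest at 7.24, and that of the reactive astrocyte genes was lowest in 15 d rat 41, 8.28 against 8.52.

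For 5 called probe sets the change from 8 d to 15 d differed between contralateral tissue and tumour after MRT, by limma's test of the difference. The contralateral change minus the tumour change was 2.18 log2 for Cd86, -0.58 for Mdm2, -2.57 for 1376089_at, 1.59 for Clic2 and 1.13 for Trem2, and all 5 also passed with the rat as a replicate block.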

How the results depend on the processing

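Each of the 7 named genes and both unnamed probe sets kept its direction in all 231 recomputed values, and its call in 158 of them. Cd86 kept its call in 24 of 25, losing it in the fit of the 10 arrays alone (limma, adjusted p = 0.0563). Clic2 kept its call in 14 of 26 and Trem2 in 13 of 26. The count of 9 calls between 15 d and 8 d became 54 with only the 10 arrays, 5 without the BB arrays, 30 after quantile normalization, 23 with all arrays set to 1 median, 1412 with array weights, 14 with striatal markers as a covariate, 16 on log2 of the value plus 16, 2 past 1 log2, 3 with the Gapdh covariate, 1 with the thalamus covariate and 4 without rats 32 and 34. Leaving out 1 array gave 1 to 18 calls. After BB the count of 259 became 149 with only those arrays and 16 to 493 leaving out 1. The difference between MRT and BB, at 0 calls, gave 1 with only those arrays and 0 to 17 leaving out 1, the 17 without 15 d rat 43 of the MRT group. The difference from tumour, 1990 calls, became 3390 with the rat as a replicate block (consensus correlation 0.138) and 982 to 1879 leaving out 1. The comparisons with untreated rats gave 1041 to 1628 calls at 15 d leaving out 1 array (1132 without untreated rat 28, 1121 without 15 d rat 41 and 1041 without 15 d rat 42), 3478 with only those arrays, and 944 to 1516 at 8 d (944 without untreated rat 28). The causes were not tested.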
